A study of Mus musculus with 12 samples.

Results

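The 10 genes described here, Fbxo32, Trim63, Foxo1, Foxo3, Eif4ebp1, Klf15, Cebpd, Fkbp5, Cdkn1a and Mt2, are known as markers of muscle atrophy, FoxO activity or glucocorticoid action. They were read through every probe set that carries one of these symbols and no other in the array's annotation, which gave 23 probe sets of 45037, and 10 genes of 18193. The muscle came from C57Bl/6 mice that all ate standard chow, with 13% of calories from fat, up to 6 weeks of age. One group of 4 samples stayed on chow and was the control for both times, 4 had a high-fat diet, in which fat supplied 46% of calories, for 5 days, and 4 had it for 42 days. Mice were housed in groups with free access to food under a 12-h light and dark cycle, so the hour and the feeding state at collection are not given in the sources used here. Neither are the sex, the muscle taken, the age of the chow mice at collection, or whether the 4 samples of a group were separate animals. P-values therefore measure the spread between these samples, which may be technical. Age and diet cannot be told apart at 42 days, nor at 5 days, since the chow mice may differ in age from either diet group. Values are log2 signals from a single-colour Affymetrix array, with 1 array per sample, so a difference of 1 is a 2-fold difference.

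FoxO transcription factors stay out of the nucleus while insulin signals through Akt, and enter it when that signal falls. There they raise the genes for the muscle ubiquitin ligases atrogin-1 (Fbxo32) and MuRF1 (Trim63), which mark myofibrillar and other proteins for the proteasome, and the gene for 4E-BP1 (Eif4ebp1), which holds back cap-dependent translation. Glucocorticoids act through a nuclear receptor on an overlapping set: Klf15 and Cebpd encode transcription factors, Fkbp5 a co-chaperone that dampens the receptor, Mt2 a metal-binding protein, and Cdkn1a the cell cycle inhibitor p21. In fasted, diabetic or glucocorticoid-treated muscle many of these genes are known to rise together.

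Start-site sequences from RefSeq (build GRCm38.p6, 250 bases before to 50 after the start) were found for 7 of the 10 genes, as 8 windows. The windows of Trim63 (chr4:134314870-134315169, plus strand), Fkbp5 (chr17:28486100-28486399, minus strand) and Mt2 (chr8:94172368-94172667, plus strand) are shown because they hold, in turn, FoxO and glucocorticoid receptor letters, an E-box, and metal response letters. Capitals mark the matches named after them, and each window is read 5′ to 3′ on the gene's strand.
Trim63: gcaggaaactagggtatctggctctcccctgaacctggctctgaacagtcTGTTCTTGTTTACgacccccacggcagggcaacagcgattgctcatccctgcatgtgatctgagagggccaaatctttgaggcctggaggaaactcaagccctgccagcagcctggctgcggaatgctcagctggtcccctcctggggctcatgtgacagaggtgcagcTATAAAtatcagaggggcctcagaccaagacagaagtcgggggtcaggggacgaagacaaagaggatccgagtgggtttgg
Fkbp5: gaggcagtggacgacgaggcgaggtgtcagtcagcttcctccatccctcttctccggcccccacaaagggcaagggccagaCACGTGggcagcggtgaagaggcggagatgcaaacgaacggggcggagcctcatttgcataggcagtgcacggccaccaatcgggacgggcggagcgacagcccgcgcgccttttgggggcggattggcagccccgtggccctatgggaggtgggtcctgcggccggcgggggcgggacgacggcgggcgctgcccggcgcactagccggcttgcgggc
Mt2: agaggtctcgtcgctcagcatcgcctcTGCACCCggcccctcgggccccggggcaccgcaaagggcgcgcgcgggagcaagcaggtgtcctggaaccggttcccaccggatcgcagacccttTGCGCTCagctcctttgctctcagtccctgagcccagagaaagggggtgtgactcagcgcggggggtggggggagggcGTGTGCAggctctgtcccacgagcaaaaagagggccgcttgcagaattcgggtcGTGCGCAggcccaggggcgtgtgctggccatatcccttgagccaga

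In Trim63 the glucocorticoid receptor hexamer AGAACA, read on the opposite strand at bases -200 to -195 from the start, lies directly against the FoxO motif GTAAACA at -194 to -188, and a TATA box, TATAAA, stands at -31 to -26. On either strand, AGAACA occurred in 19.0% of 32851 mouse start-site windows, GTAAACA in 3.65% and TATAAA in 13.6%. The FoxO motif followed at once by the hexamer occurred in 1 of the 32851 windows (0.00304%), that of Trim63; this joined motif was searched after the Trim63 window had been seen. The Fkbp5 window held the E-box CACGTG at -169 to -164, a motif found in 7.15% of windows, and neither FoxO nor glucocorticoid receptor letters. In Mt2 the metal response letters TGCGCNC (15.4% of windows) stood at -128 to -122 and, on the opposite strand, at 5 to 11. The form TGCACNC (12.6% of windows) stood at -223 to -217 and, on the opposite strand, at -50 to -44. Also searched were the FoxO letters TGTTTTG, present in 6.28% of windows, and the glucocorticoid receptor palindrome, present in 0.00913%; none of the 8 member windows held either. A match is a description of letters and no evidence of binding. The palindrome holds the hexamer AGAACA on both strands, so each of its matches also counts as a hexamer.

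A rise of these genes together, as known from atrophy, was not seen past the test at either time. Each probe set was tested singly, and a small shift shared by all of them was not tested. After 5 days 0 of the 23 probe sets passed the test (limma, adjusted p under 0.05 after Benjamini-Hochberg over all 45037 probe sets), against 3.21% of all probe sets. At an unadjusted p under 0.05 there were 6 of 23 (24.1% of all probe sets), and 8 at 42 days against chow (23.1% of all) and 8 between the diet times (27.6% of all). After 42 days 3 of 23 passed (13%, against 8.78% of all): Eif4ebp1 fell on 2 of its 3 probe sets (4.13% of all probe sets fell) and Fkbp5 rose on 1 of its 3 (4.65% of all rose). Between the 2 diet times, 1 of 23 differed (4.35%, against 5.98% of all), an Eif4ebp1 probe set that was lower at 42 days. These shares lay near those of the whole array. The other 8 genes, with Foxo1, Foxo3, both ligases, Klf15, Cebpd, Cdkn1a and Mt2 among them, passed in none of the 3 contrasts. An F-test over the 3 groups called 3 of the 23, in 2 genes, against 12.9% of all probe sets.

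The intervals show what size of change these arrays leave room for. At 5 days the 95% interval of the log2 difference lay within 1.5-fold either way for 22 of 23 probe sets and within 2-fold for all 23. At 42 days against chow it lay within 1.5-fold for 20 and within 2-fold for 23, with bounds from -0.63 to 0.57. The median log2 difference over the 23 was 0.105 at 5 days (all probe sets -0.021), -0.102 at 42 days (all -0.006) and -0.207 between the diet times (all 0.028). Of the 23, 17 belong to the brightest 20% of probe sets, whose medians were 0.066, -0.038 and -0.095. At 5 days 18 (78.3%) were higher than chow in value, as were 74% of the brightest 20% and 43.9% of all, and at 42 days 19 (82.6%) were lower than at 5 days, as were 77.3% of the brightest 20% and 42.2% of all. With quantile normalization 18 were lower, with arrays centred on their median 20, and with cyclic loess 18. Of all probe sets, 51.2%, 39% and 51.3% were higher at 42 than at 5 days on those scales, against 57.7% as deposited. The member medians there were -0.121, -0.272 and -0.11. The share of the brightest 20% on those scales is not given here. Because this is bulk tissue, fewer cells of a type and less RNA per cell cannot be told apart in any of these values.

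**Figure D1:**
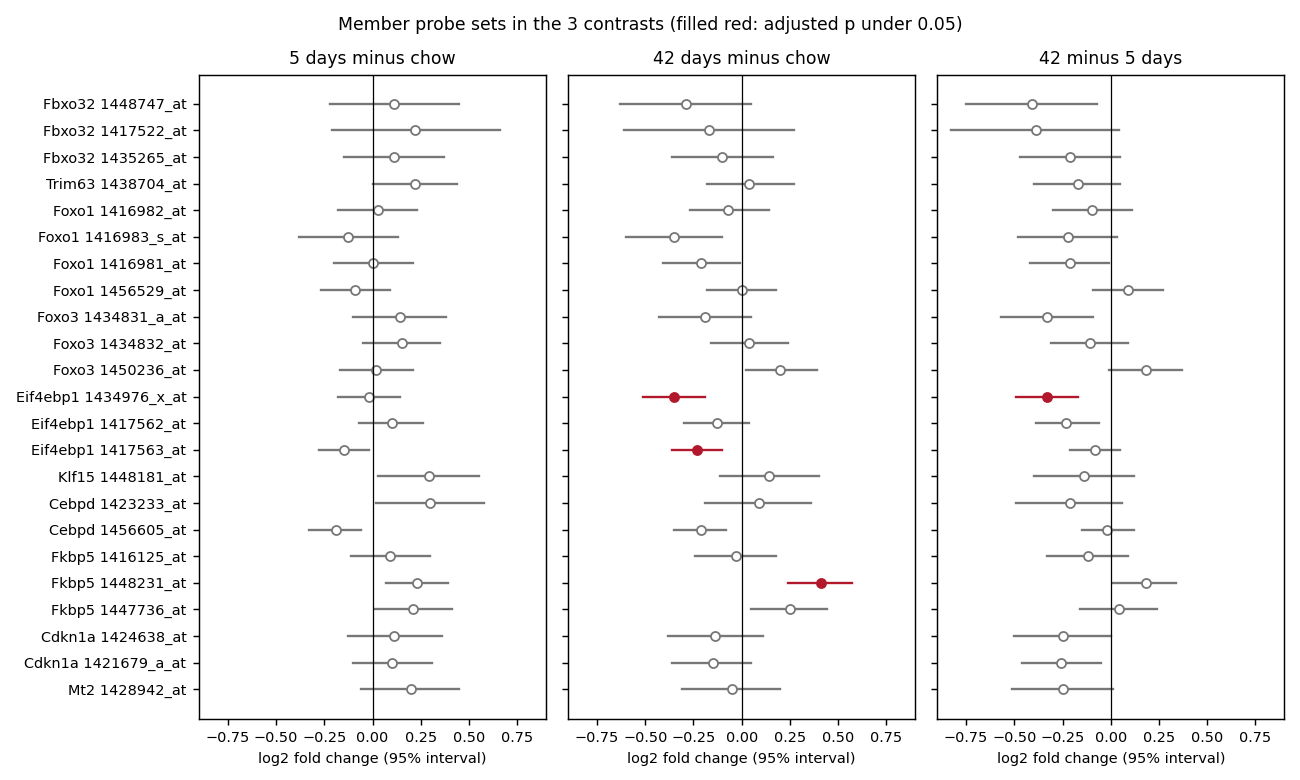
Log2 differences of the 23 probe sets in the 3 contrasts, with 95% intervals from limma; filled red points have an adjusted p under 0.05. No point is filled at 5 days against chow, 3 are filled at 42 days against chow (2 Eif4ebp1 probe sets below 0 and Fkbp5 1448231_at above it), and 1 Eif4ebp1 probe set is filled at 42 against 5 days.

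Foxo1 encodes the FoxO factor best known from fasting muscle. On its brightest probe set, 1416982_at, the chow arrays read 11.11, 11.38, 11.29 and 11.61, the 5-day arrays 11.41, 11.44, 11.20 and 11.46, and the 42-day arrays 11.38, 11.12, 11.38 and 11.25. The 3 groups overlapped, and the differences from chow were 0.03 ± 0.0963 (SE) at 5 days (adjusted p = 0.888, limma) and -0.07 ± 0.0963 at 42 days (adjusted p = 0.74). A second probe set, 1416983_s_at, whose suffix means that it may also bind related transcripts, read 10.96, 11.29, 11.49 and 11.58 on chow, 11.15, 11.27, 11.12 and 11.28 at 5 days, and 11.14, 10.76, 11.15 and 10.86 at 42 days. Chow replicate 1 lay inside the 42-day range on this probe set, and the other 3 chow arrays lay above it. Its 42-day difference was -0.35 ± 0.119 (adjusted p = 0.0813, limma; 95% interval -0.60 to -0.10). The third, 1416981_at, gave -0.21 ± 0.0959 at 42 days (adjusted p = 0.205), and the dimmer 1456529_at gave 0.00 ± 0.0857 (adjusted p = 0.995). Without chow replicate 1, Foxo1 1416983_s_at stood at -0.48 (adjusted p = 0.00808, limma) and 1416981_at at -0.30 (adjusted p = 0.0442). Each of them passed at 42 days in only 1 of the 12 fits without an array. The brightest probe set, 1416982_at, and the dim 1456529_at passed in 0 of 12.

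Foxo3 encodes the FoxO factor that also drives autophagy genes in muscle. Its brightest probe set, 1434831_a_at, read 9.70, 10.17, 10.24 and 10.39 on chow, 10.33, 10.37, 10.29 and 10.08 at 5 days, and 9.98, 9.81, 9.99 and 9.96 at 42 days. All 42-day values lay below all 5-day values, while chow spanned both because replicate 1 was the lowest of the 12. The log2 difference between 42 and 5 days was -0.33 ± 0.114 (adjusted p = 0.0869, limma), and 42 days against chow gave -0.19 ± 0.114 (adjusted p = 0.349). Without chow replicate 1 the Foxo3 difference from chow was -0.33 (adjusted p = 0.0174, limma) and that between the diet times -0.33 (adjusted p = 0.0246). Each of these 2 differences passed in only 1 of the 12 fits without an array. The other probe sets did not share this shape: 1434832_at differed from chow by 0.15 ± 0.0952 at 5 days and 0.04 ± 0.0952 at 42 days, and the dim 1450236_at by 0.02 ± 0.0878 and 0.20 ± 0.0878 (adjusted p = 0.18). Foxo4, the third FoxO gene of muscle and no member of the set, averaged 11.28 ± 0.07 on chow, 11.31 ± 0.10 at 5 days and 11.08 ± 0.08 at 42 days (SD, n = 4). Its 42-day arrays lay below all chow and all 5-day arrays, with a difference from chow of -0.20 ± 0.0655 (adjusted p = 0.0694, limma).

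Fbxo32, the ligase gene atrogin-1, was among the brighter transcripts: 97.5% of probe sets had a lower mean than 1448747_at. That probe set read 12.42, 12.31, 12.91 and 12.43 on chow, 12.71, 13.01, 12.28 and 12.55 at 5 days, and 11.89, 12.34, 12.16 and 12.52 at 42 days. The groups overlapped, with the highest array at 5 days (replicate 2) and the lowest at 42 days (replicate 1). The differences were 0.11 ± 0.159 at 5 days (95% interval -0.22 to 0.45, adjusted p = 0.689, limma) and -0.29 ± 0.159 at 42 days (-0.63 to 0.05, adjusted p = 0.294). From 5 to 42 days the value was -0.41 ± 0.159 (adjusted p = 0.119). On 1417522_at the 3 differences were 0.22 ± 0.205, -0.17 ± 0.205 and -0.39 ± 0.205, and on 1435265_at 0.11 ± 0.122, -0.10 ± 0.122 and -0.21 ± 0.122. All 3 Fbxo32 probe sets therefore had the same order of group means, highest at 5 days and lowest at 42 days, and in no contrast did one pass the test.

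The order of the Fbxo32 means rested in part on single arrays. On all 3 probe sets 5-day replicate 2 was the highest of the 12 arrays (13.01, 12.34 and 11.70) and 42-day replicate 1 the lowest (11.89, 11.08 and 10.99). Without 5-day replicate 2 the Fbxo32 differences at 5 days were -0.01, 0.09 and 0.01.

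Trim63, the ligase gene MuRF1, has 1 probe set, 1438704_at, brighter than 98.9% of all. It read 13.27, 13.02, 13.44 and 13.28 on chow, 13.56, 13.67, 13.26 and 13.40 at 5 days, and 13.16, 13.15, 13.48 and 13.40 at 42 days. The groups overlapped at both times. The 5-day difference was 0.22 ± 0.104 (95% interval 0.00 to 0.44, adjusted p = 0.213, limma), and the 42-day difference 0.04 ± 0.104 (-0.18 to 0.27, adjusted p = 0.851). Both ligase genes thus had their highest mean at 5 days, by less than the test's threshold.

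**Figure D2:**
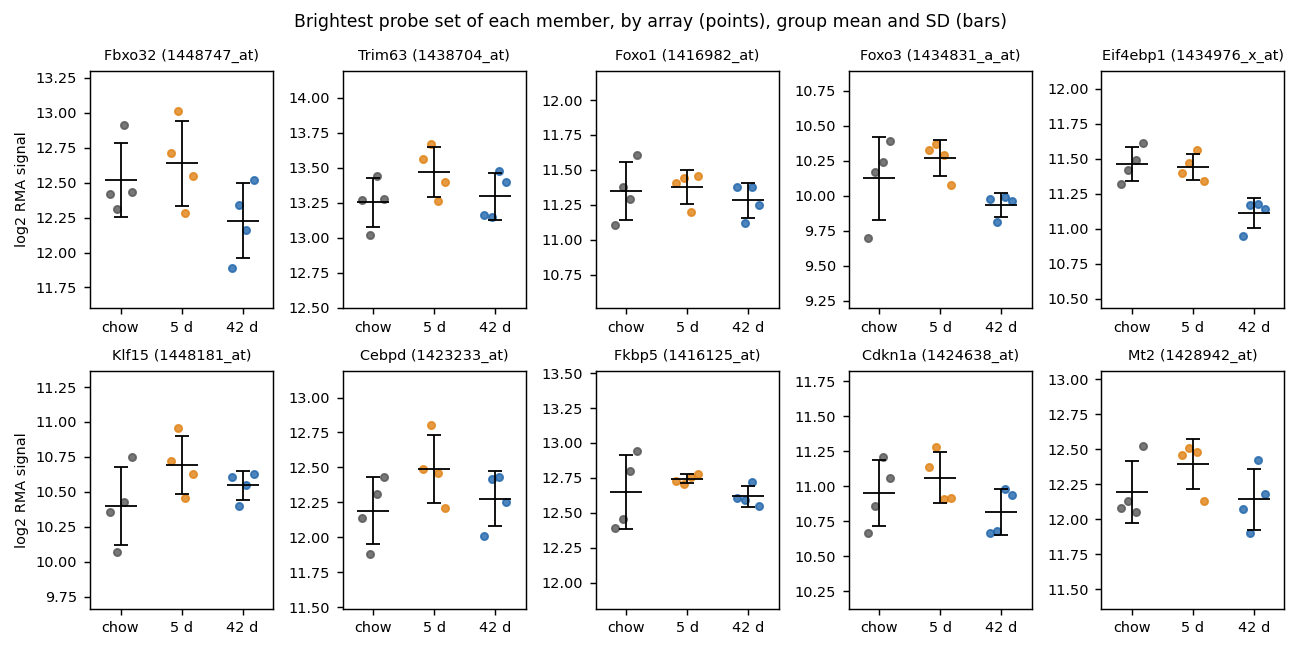
Log2 signal of the brightest probe set of each of the 10 genes on each array (points), with the group mean and SD (bars, n = 4), all panels on the same span. Eif4ebp1 (1434976_x_at) is the only panel in which the 42-day points lie below all chow and all 5-day points; the chow points of Fkbp5 run from 12.39 to 12.94, and the 5-day points only from 12.71 to 12.78.

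Klf15 encodes a zinc finger factor that raises amino acid breakdown and is a direct target of the glucocorticoid receptor. Its probe set 1448181_at read 10.36, 10.07, 10.43 and 10.75 on chow, 10.72, 10.96, 10.46 and 10.63 at 5 days, and 10.61, 10.40, 10.55 and 10.63 at 42 days. Chow replicate 2 was the lowest array and 5-day replicate 2 the highest, and the groups overlapped. The differences were 0.29 ± 0.122 at 5 days (95% interval 0.03 to 0.55, adjusted p = 0.165, limma) and 0.14 ± 0.122 at 42 days (adjusted p = 0.528). Without 5-day replicate 2 the Klf15 difference at 5 days was 0.20. The RefSeq window of Klf15 (chr6:90462326-90462625) held 3 CACGTG letters, at -228, -172 and -3 from the start. The metal response letters TGCGCNC also stood, on the opposite strand, in the windows of Klf15 (-169 to -163) and Foxo3 (-153 to -147).

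Cebpd encodes C/EBP delta, an acute-phase and stress factor. Its bright probe set 1423233_at read 12.14, 11.88, 12.31 and 12.43 on chow, 12.49, 12.80, 12.46 and 12.21 at 5 days, and 12.01, 12.42, 12.43 and 12.25 at 42 days. Its dimmer probe set 1456605_at read 8.23, 8.13, 8.36 and 8.23 on chow, 7.94, 8.08, 8.13 and 8.02 at 5 days, and 7.93, 8.09, 8.03 and 8.04 at 42 days. The pair disagreed in direction at 5 days. The bright one was 0.30 ± 0.131 above chow (adjusted p = 0.178, limma) and the dim one 0.19 below it (difference -0.19 ± 0.0639, adjusted p = 0.0895). At 42 days the bright one differed by 0.09 ± 0.131 (adjusted p = 0.758), and the dim one by -0.21 ± 0.0639 with all 4 arrays below all chow arrays (adjusted p = 0.0506, just above the threshold). No direction can be given for the Cebpd transcript from these. Its paralog Cebpb averaged 13.10 ± 0.15, 13.28 ± 0.10 and 13.09 ± 0.20 in the 3 groups (SD, n = 4) and did not pass in any contrast (5 days adjusted p = 0.253).

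Fkbp5, the co-chaperone gene, is one of the most sensitive glucocorticoid-induced transcripts, and its 3 probe sets gave different answers. On 1448231_at chow read 10.47, 10.42, 10.61 and 10.78, 5 days 10.77, 10.86, 10.67 and 10.89, and 42 days 10.91, 10.95, 11.05 and 11.00. All 42-day values lay above all 5-day and all chow values. The 42-day difference from chow was 0.41 ± 0.0767 (1.33-fold, 95% interval 0.24 to 0.57, adjusted p = 0.00463, limma), and the 5-day difference 0.23 ± 0.0767 (adjusted p = 0.0922). The step between the diet times, 0.18 ± 0.0767, did not pass (adjusted p = 0.15).

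The brightest Fkbp5 probe set, 1416125_at, did not rise. It read 12.39, 12.46, 12.80 and 12.94 on chow, 12.73, 12.71, 12.76 and 12.78 at 5 days, and 12.61, 12.59, 12.72 and 12.55 at 42 days, a difference of -0.03 ± 0.098 at 42 days (95% interval -0.24 to 0.18, adjusted p = 0.903, limma). The gap between this probe set and 1448231_at, which leaves out what both share on an array, was 1.91 to 2.19 on chow (median 2.11), 1.85 to 2.08 at 5 days (1.92) and 1.56 to 1.70 at 42 days (1.66). The dim 1447736_at, brighter than only 5.42% of probe sets, differed by 0.25 ± 0.0932 at 42 days (adjusted p = 0.12). The rise of Fkbp5 was thus seen on 1 probe set, and no direction can be given for the gene. Which transcripts each probe set binds was not analysed here.

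The Fkbp5 1448231_at call at 42 days held in all 12 fits that left out an array, with log2 differences from 0.36 to 0.48. It was lost with the hepatocyte marker mean as a covariate (0.42, adjusted p = 0.232) and with the fibroblast and tendon marker mean (0.26, adjusted p = 0.569). These markers also separate the 42-day arrays from chow, and with either covariate 0 of all 45037 probe sets passed at 42 days.

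Mt2 encodes metallothionein 2, which binds zinc and copper and is raised by metals and glucocorticoids. Its probe set 1428942_at read 12.08, 12.13, 12.05 and 12.52 on chow, 12.46, 12.51, 12.48 and 12.13 at 5 days, and 12.07, 11.90, 12.42 and 12.18 at 42 days. In each of the chow and 5-day groups replicate 4 lay apart, high on chow and low at 5 days, which made the groups overlap. The differences were 0.20 ± 0.12 at 5 days (adjusted p = 0.329, limma) and -0.05 ± 0.12 at 42 days (adjusted p = 0.845). Mt1, the neighbouring metallothionein gene, whose probe set may bind related transcripts, averaged 12.95 ± 0.15, 13.03 ± 0.20 and 12.75 ± 0.23 (SD, n = 4) and did not pass. Of 9 measured metallothionein and zinc genes, 0 passed in any contrast.

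Cdkn1a encodes p21, a target of p53 and FoxO that stops the cell cycle. On 1424638_at chow read 10.67, 10.86, 11.21 and 11.06, 5 days 11.14, 11.28, 10.91 and 10.92, and 42 days 10.67, 10.68, 10.98 and 10.94. The dimmer 1421679_a_at read 8.40, 8.39, 8.43 and 8.54 on chow, 8.66, 8.79, 8.43 and 8.28 at 5 days, and 8.25, 8.12, 8.38 and 8.39 at 42 days. On both probe sets 5-day replicate 2 was the highest array, and the groups overlapped. At 5 days the differences were 0.11 ± 0.116 and 0.10 ± 0.096 (adjusted p = 0.573 and 0.539, limma), and without 5-day replicate 2 the Cdkn1a values were 0.04 and 0.02. At 42 days they were -0.14 ± 0.116 and -0.15 ± 0.096 (adjusted p = 0.533 and 0.371).

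Eif4ebp1 encodes 4E-BP1, which binds the cap-binding factor eIF4E until mTORC1 phosphorylates it, and its RNA is known to be raised by FoxO and ATF4. On 1434976_x_at chow read 11.32, 11.42, 11.49 and 11.61, 5 days 11.40, 11.47, 11.56 and 11.34, and 42 days 10.95, 11.17, 11.18 and 11.14. All 42-day values lay below the other 8. The level fell by 0.35 on the log2 scale at 42 days (difference -0.35 ± 0.0745, 1.28-fold lower, 95% interval -0.51 to -0.19, adjusted p = 0.00915, limma) and stood at -0.02 ± 0.0745 at 5 days (adjusted p = 0.892). The difference between 42 and 5 days was itself past the test (-0.33 ± 0.0745, adjusted p = 0.0278). The suffix of this probe set means that some of its probes may bind other transcripts.

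A second Eif4ebp1 probe set, 1417563_at, read 8.49, 8.36, 8.54 and 8.54 on chow, 8.35, 8.39, 8.23 and 8.35 at 5 days, and 8.24, 8.30, 8.15 and 8.31 at 42 days. It too fell at 42 days (-0.23 ± 0.0609, 1.17-fold lower, adjusted p = 0.0288, limma), with all 42-day values below all chow values. The third, 1417562_at, read 11.03, 11.03, 11.20 and 11.14 on chow, 11.19, 11.28, 11.13 and 11.20 at 5 days, and 10.71, 11.08, 11.01 and 11.07 at 42 days. It did not pass against chow (-0.13 ± 0.0783, adjusted p = 0.352), where the groups overlapped, and its 42-day values lay below all 5-day values (-0.23 ± 0.0783, adjusted p = 0.0856). All 3 probe sets thus had their lowest mean at 42 days. Of the 23 probe sets, 4 had 42-day arrays apart from all chow arrays (17.4%, against 15.2% of all probe sets): both called Eif4ebp1 probe sets, Cebpd 1456605_at and Fkbp5 1448231_at. From 5 to 42 days 4 were apart (17.8% of all) and at 5 days against chow 0 (11.7% of all).

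The Eif4ebp1 1434976_x_at call at 42 days held in all 12 fits without an array, with log2 differences from -0.40 to -0.30. The Eif4ebp1 1417563_at call held in 8 of 12: adjusted p was 0.0884 without chow replicate 3, 0.0783 without chow replicate 4, 0.066 without 42-day replicate 1 and 0.0891 without 42-day replicate 3. The Eif4ebp1 difference between the diet times held in 7 of 12. It was lost without 5-day replicate 2 (adjusted p = 0.0751) or 3 (0.069) and without 42-day replicate 1 (0.0832), 2 (0.0542) or 4 (0.0563), and also with quantile normalization (-0.23, 0.0788) and cyclic loess (-0.24, 0.0778). With the hepatocyte marker mean as a covariate the 42-day values were -0.29 (adjusted p = 0.376) and -0.25 (0.366), and with the fibroblast and tendon marker mean -0.28 (0.539) and -0.31 (0.386).

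**Figure D3:**
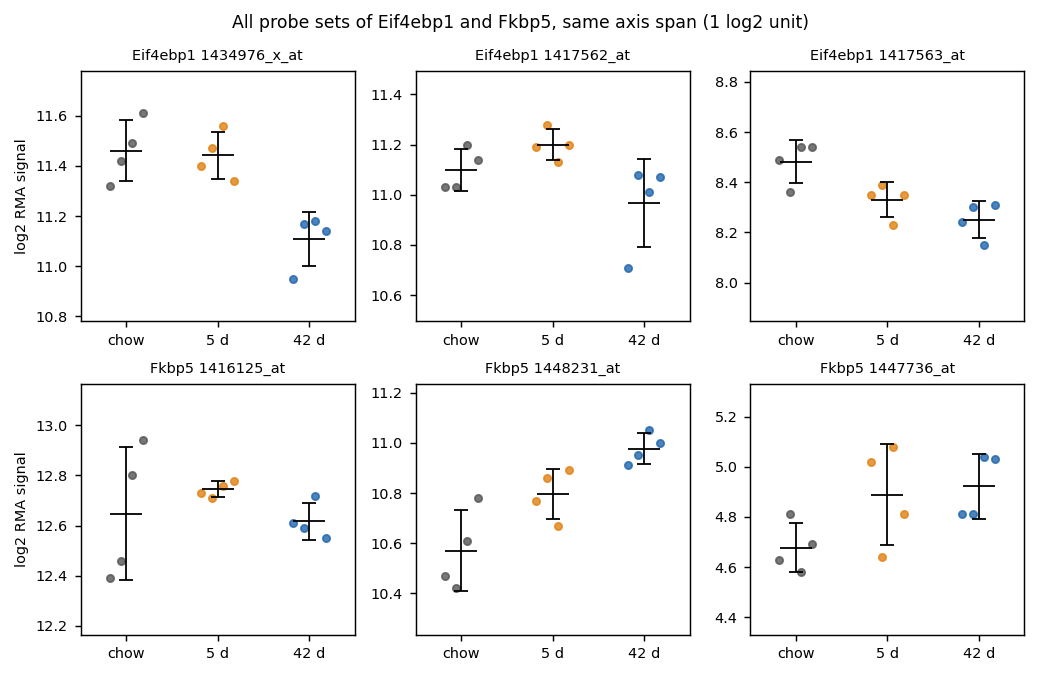
Log2 signal of the 3 Eif4ebp1 and 3 Fkbp5 probe sets on each array (points), with the group mean and SD (bars, n = 4); each axis spans 1 log2 unit. Eif4ebp1 1434976_x_at and 1417563_at are lower at 42 days than on chow on every array, 1417562_at overlaps chow, and of the Fkbp5 probe sets 1448231_at alone has its 42-day points (10.91 to 11.05) above all others.

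By Pearson's r over the 12 arrays, the genes with the profile most like Eif4ebp1 1434976_x_at were Trim27 (0.975), Blcap (0.972) and Samd8 (0.965). For the brightest Fkbp5 probe set, which did not itself pass the F-test (adjusted p = 0.571, limma F-test), they were Fam117b (0.946), Aff1 (0.929) and Dmp1 (0.873). For Fkbp5 1448231_at, which passed it and was added after the data were seen, they were Pds5a (0.929), Cd47 (0.911) and Rab1a (0.896). These are descriptions over 12 arrays in 3 groups, chosen as the largest among all genes, and they share array and group differences.

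Several of the 10 genes were high or low on the same arrays within a group. Of the 23 probe sets, 10 had their highest value on 5-day replicate 2 and 8 on chow replicate 4, and 7 had their lowest on 42-day replicate 1. Probe sets of the same gene count separately here. By the brightest probe set of each gene the counts were 5, 5 and 3 of 10. The shares over all probe sets were not counted, so these counts cannot be told apart from differences between whole arrays. The mean deviation of the 10 genes from their own means was 0.29 on 5-day replicate 2 and -0.20 on 42-day replicate 1, while replicates 3 and 4 at 5 days stood at 0.03 and 0.02. On chow it ran from -0.19 in replicate 1 to 0.17 in replicate 4. Read by their brightest probe set, 9 of the 10 genes had their highest group mean at 5 days and 7 their lowest at 42 days; 34.2% of all 18193 genes, and 64.2% of the 5546 with a mean in the brightest 20% of probe sets, were highest at 5 days.

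**Figure D4:**
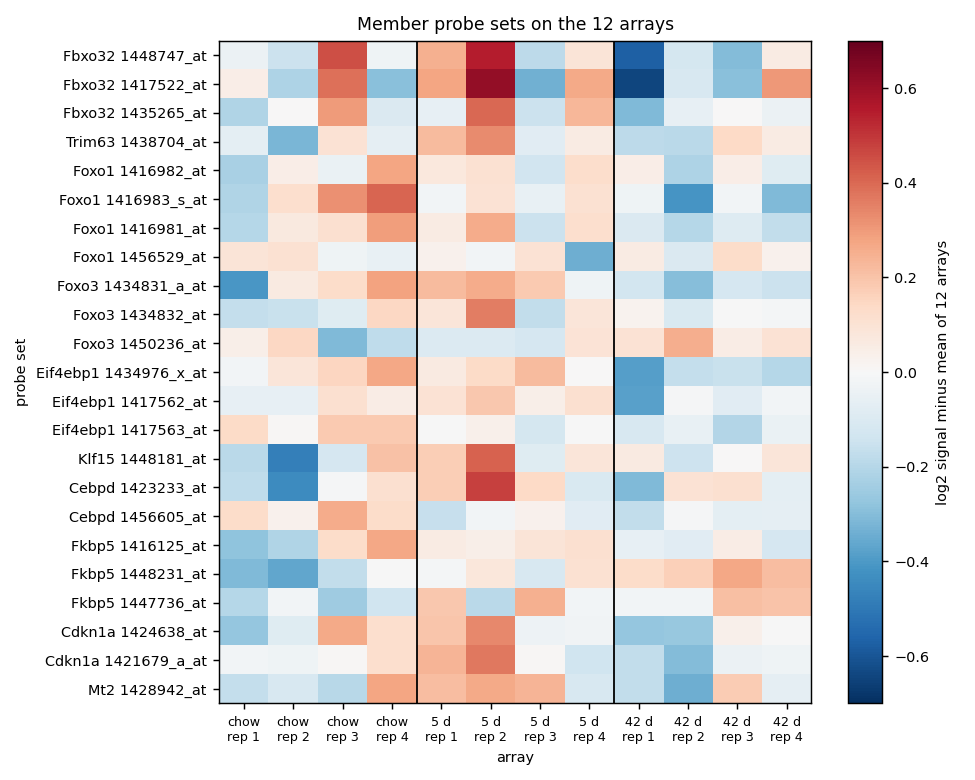
Log2 signal of the 23 probe sets (rows) on the 12 arrays (columns), each as its difference from the probe set's mean over the 12 arrays. 5-day replicate 2 is red in most rows (highest of 12 in 10 rows) and 42-day replicate 1 is blue for Fbxo32 and for Eif4ebp1 1434976_x_at and 1417562_at.

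The wider pathways were read through 13 lists of companion genes, none of them members, of which 185 of 206 genes were measured. At 5 days 8 rose (4.32%, against 1.24% of all genes) and 0 fell (1.65% of all). At 42 days 6 rose (3.24%, against 2.41%) and 9 fell (4.86%, against 3.9%). Between the diet times 0 rose (1.76% of all) and 17 fell (9.19%, against 4.34%). The medians were 0.046, -0.058 and -0.103, beside -0.010, -0.013 and 0.008 over all genes. Over the brightest 20% of probe sets they were 0.066, -0.038 and -0.095. These counts moved with single arrays. The 5-day count was 0 without 5-day replicate 2 or chow replicate 3, 4 without chow replicate 4, and 5 without chow replicate 1 or 42-day replicate 3, and none of the 8 calls passed in all 12 fits without an array. Of the calls named here, 4 of 15 at 42 days and 2 of 16 between the diet times did. The 42-day count was 5 without chow replicate 3, 6 without chow replicate 4, 7 to 9 without any one of the 42-day arrays, and 21 without chow replicate 1. The count between the diet times was 2 to 6 without any one of the 42-day arrays, 2 without 5-day replicate 2 and 3 without 5-day replicate 3.

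The deposited scale mattered as well, because the medians of the 5-day arrays, 7.59 to 7.63, lay below those of the others, 7.65 to 7.70. Of the calls over all genes at 5 days 42.8% were higher, against 84.8% with arrays centred on their median, and over all probe sets 47.5% against 60.6% with quantile normalization, 85.3% centred and 62.5% with loess. From 5 to 42 days 28.8% of the calls over all genes were higher, against 41.2% (quantile), 5.31% (centred) and 46.3% (loess), and over all probe sets 39.9% against 9.69% centred. Among the companions at 5 days, 4 rose and 1 fell with quantile normalization and 4 rose with loess, with medians of -0.003 and -0.001. At 42 days 9 rose and 6 fell with loess. Between the diet times 1 rose and 3 fell with either quantile normalization or loess.

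Of 26 measured FoxO-linked genes, 2 rose at 5 days: Irs2, the insulin receptor substrate that FoxO raises, by 0.40 ± 0.084 (1.32-fold, adjusted p = 0.0302, limma), and Ctsl, a lysosomal protease, by 0.23 ± 0.0567 (adjusted p = 0.045). At 42 days Ctsl stood 0.21 ± 0.0567 above chow, and Cblb, a ubiquitin ligase for IRS1, and Sirt1, a deacetylase of FoxO, fell (-0.23 ± 0.0562 and -0.24 ± 0.0695). From 5 to 42 days Irs2 fell by 0.62 on the log2 scale (1.54-fold lower, adjusted p = 0.00885), with Sesn3 (-0.31 ± 0.0819) and the F-box gene Fbxo31 (-0.25 ± 0.0656). Irs2 was past the test between the diet times in all 12 fits without an array, and at 5 days against chow in 8. The call of Ctsl at 5 days held in 2 of those 12 fits. In the insulin and Akt list, 16 of 20 genes were higher in value at 5 days. Of all 185 companions 126 (68.1%) were higher, as were 47% of all genes and 74% of the brightest 20% of probe sets. Irs2 and the pseudokinase Trib1 (0.37 ± 0.0847) of the insulin and Akt list passed the test. With quantile normalization 12 of the 20 and 88 of the 185 were higher, and with loess 13 and 91. Between the diet times 19 of 20 were lower, beside 153 of the 185 companions and 77.3% of the brightest 20% of probe sets. Of the 20, 5 fell: Irs2, Insr (-0.24) and the kinase genes Pdpk1 (-0.27), Pik3ca (-0.23) and Gsk3b (-0.25, adjusted p = 0.0488, limma). Gsk3b was named outside the rule after its value was seen. With quantile normalization 15 of the 20 were lower and 1 fell, and with loess 14 and 1.

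Of 29 other glucocorticoid-induced genes, 2 rose at 5 days, Dusp1, a MAP kinase phosphatase (0.59 ± 0.111, 1.5-fold, adjusted p = 0.0283, limma), and Errfi1, an inhibitor of the EGF receptor (0.51 ± 0.104, adjusted p = 0.0296). Tsc22d3, which encodes GILZ and is a classic receptor target, differed from chow by -0.08 ± 0.0727 at 5 days and -0.11 ± 0.0727 at 42 days and did not pass. At 42 days 0 of the 29 passed, with 7 higher and 22 lower in value and a median of -0.097. The clock repressors Per1 (-0.30 ± 0.0578, adjusted p = 0.0202) and Cry2 (-0.25 ± 0.0584) fell between 5 and 42 days. The receptor gene Nr3c1 was 0.18 ± 0.0659 above chow at 5 days, with all arrays apart (adjusted p = 0.126), and Hsd11b1, which regenerates active glucocorticoid, differed by -0.25 ± 0.131 (adjusted p = 0.261). Of 9 receptor and activation genes, the coactivator gene Ncoa2 fell at 42 days against both other groups (-0.28 ± 0.0683 and -0.27 ± 0.0683).

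Around the cell cycle, Btg2, an antiproliferative p53 target, rose at 5 days (0.52 ± 0.0928, adjusted p = 0.0263, limma) and fell between 5 and 42 days (-0.58 ± 0.0928, adjusted p = 0.0141); 14 other p53 targets did not pass at 5 days. The p53 targets Eda2r (-0.32 ± 0.0821) and Zmat3 (-0.21 ± 0.0556) also fell between the diet times. In the list of cyclin-dependent kinase inhibitors and partners, the gene that changed was Pcna, a replication clamp and no inhibitor, at 0.42 ± 0.0672 at 5 days and 0.34 ± 0.0672 at 42 days (adjusted p = 0.0229 and 0.00627). Of 17 clock genes, 1 fell at 42 days (Rora, a nuclear receptor that activates clock genes, -0.28 ± 0.0768) and 3 between the diet times.

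Near Eif4ebp1, its paralog Eif4ebp2 also fell at 42 days (-0.29 ± 0.0776, 1.23-fold lower, adjusted p = 0.0286, limma) and against 5 days (-0.27 ± 0.0776, adjusted p = 0.0497), while the gene of their target Eif4e rose (0.21 ± 0.0571, adjusted p = 0.0297). The ribosomal protein gene Rps6 fell (-0.28 ± 0.0724), on a probe set with a mean of only 8.66, beside 12.13 for Eif4e. The other 9 of 12 cap-dependent translation genes did not pass. Of 17 ATF4 targets 1 fell at 42 days (Mthfd2, a mitochondrial folate enzyme, -0.20 ± 0.058) and 1 between the diet times (Shmt2, -0.22 ± 0.0521). Without an array, the 42-day calls against chow held in 8 of 12 fits for Eif4ebp2, 6 for Rps6, 5 for Eif4e and 2 for Mthfd2. Between the diet times the call of Eif4ebp2 held in 2 of 12 fits and under 1 of 3 other normalizations, and that of Shmt2 in 7 and under 1.

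Of 17 amino acid breakdown genes linked to KLF15, 3 changed at 42 days and 0 at 5 days. The aminotransferase gene Gpt2 fell (-0.41 ± 0.0823, 1.33-fold lower, adjusted p = 0.00722, limma), while Glud1, glutamate dehydrogenase, and Got1, an aspartate aminotransferase, rose (0.37 ± 0.0785 and 0.31 ± 0.0708, adjusted p = 0.00962 and 0.0128). These 3 and Pcna were the 42-day companion calls that passed in all 12 fits without an array. Of 22 autophagy genes, Pik3c3 and Ctsl rose at 5 days, the first by 0.23 ± 0.0577 (a call that held in 0 of 12 fits without an array), and at 42 days Gabarapl2 (0.24 ± 0.0691) and Ctsl rose and Map1lc3a, an LC3 gene, fell (-0.30 ± 0.0697). Of 4 other C/EBP genes Cebpg fell between the diet times (-0.26 ± 0.0662), and Cebpa, also an adipocyte gene, stood at -0.71 ± 0.196 at 5 days (adjusted p = 0.0576).

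**Figure D5:**
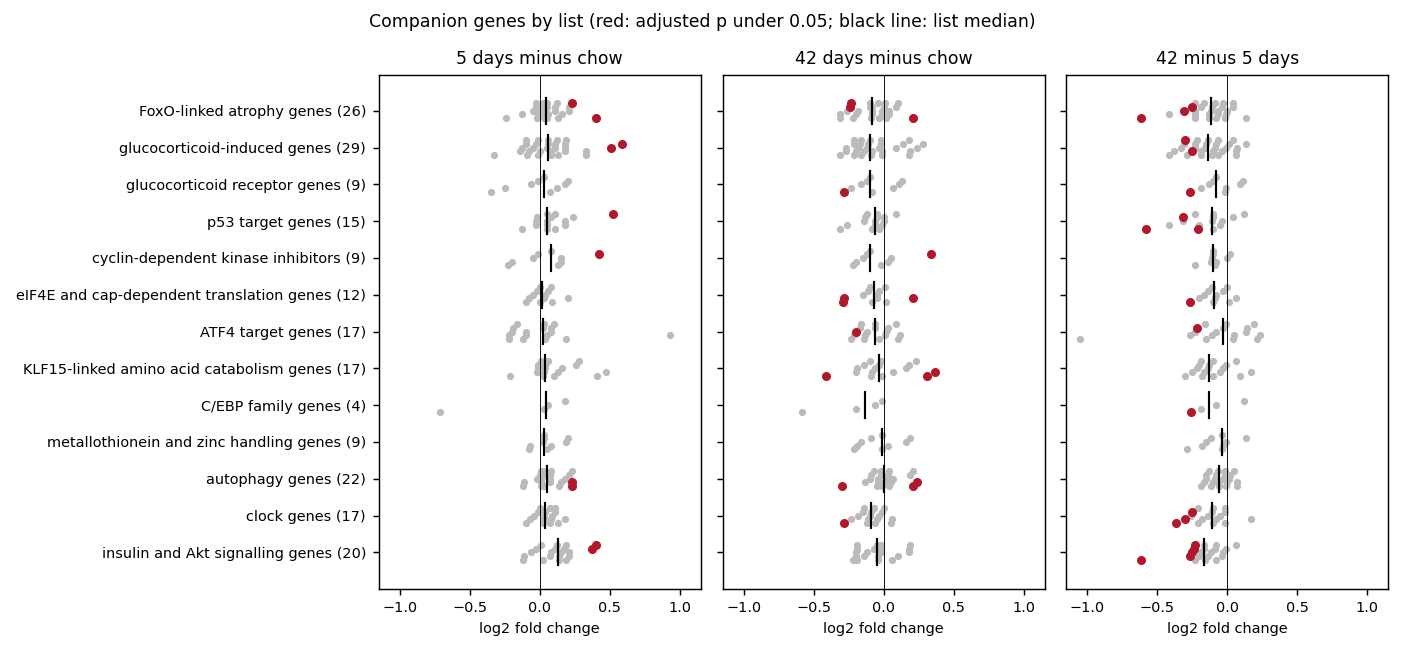
Log2 difference of each measured companion gene in its list (points; number measured in parentheses) in the 3 contrasts, with the list median as a black line and genes at an adjusted p under 0.05 in red. Red points lie to the right of 0 at 5 days (8 genes), on both sides at 42 days (6 rose, 9 fell) and to the left between the diet times (17 fell); a gene in several lists is drawn in each.

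The markers of the labelled tissue were bright on all arrays: the mean of 14 myofibre genes was 14.72 to 14.81 on the 12 arrays, and 0 of the 14 passed in any contrast. Several lay near the highest value of the series, 15.46, such as Ckm at 15.43 and Acta1 at 15.39. Their steady signal therefore does not show an unchanged share of myofibre. Markers of other cell types moved with the groups. The mean of 10 hepatocyte genes, Alb among them, was 7.99 to 8.28 on chow, 7.61 to 9.29 at 5 days and 8.82 to 10.11 at 42 days, and 9 of 10 rose at 42 days. Of 12 fibroblast and tendon genes 7 rose at 42 days, with a mean of 10.02 to 10.35 on chow, 10.11 to 10.71 at 5 days and 10.61 to 10.84 at 42 days. The mean of 11 adipocyte genes was 10.76 to 11.48 on chow, 10.48 to 10.77 at 5 days and 10.34 to 11.08 at 42 days. At 5 days 9 of the 11 were lower and 2 higher in value than chow, and Retn and Cidec fell. At 42 days 7 were lower and 4 higher than chow (median -0.207), and of the 11 only Cd36 passed the test, as a rise. For 10 brown adipocyte genes the mean was 8.27 to 8.97, 8.22 to 8.27 and 8.26 to 8.71. At 5 days 8 of these 10 were lower and 2 higher in value than chow, and 0 passed at either time against chow. Cidea differed most at 5 days (-1.65 ± 0.433, adjusted p = 0.0507, limma), with a chow SD of 1.13. Elovl3 and Slc27a2 rose from 5 to 42 days. Of 10 endothelial genes 9 were higher in value at 5 days and 2 rose, Vwf (0.33 ± 0.0759) and Cldn5 (0.37 ± 0.0873). Their mean was 9.35 to 9.48 on chow, 9.45 to 9.75 at 5 days and 9.41 to 9.52 at 42 days, where Pecam1 rose (0.43 ± 0.114), and Vwf fell from 5 to 42 days (-0.33 ± 0.0759). The mean of 9 lymphocyte genes was 7.23 to 7.35 at 5 days. This lay below all chow (7.40 to 7.47) and all 42-day arrays (7.38 to 7.47). Of the 9, 0 passed the test at 5 days, and Cd3e rose from 5 to 42 days. Single genes of this list had means of 5.72 to 8.87 over the 12 arrays. The medians of the 5-day arrays also lay below the others, and at 5 days 56.1% of all probe sets were lower than chow in value. The part of this scale in the lymphocyte means was not tested. The 10 macrophage genes had means of 9.12 to 9.33, 9.22 to 9.34 and 9.17 to 9.44, with Lyz2 risen at 42 days. The part of the endothelial and lymphocyte markers in the 5-day rises of the companions was not tested. With the adipocyte mean as a covariate the 42-day values were -0.29 for Eif4ebp1 1434976_x_at (adjusted p = 0.0139, limma), -0.21 for 1417563_at (0.0694) and 0.45 for Fkbp5 1448231_at (0.00466). The hepatocyte and the fibroblast means lay higher on every 42-day array than on any chow array, so their part in the 42-day values cannot be told apart from the diet.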

How the data were processed

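Skeletal muscle RNA of 12 samples was measured on 1 array each. The deposited values are log2 signals that the authors made with RMA, per the submitters' processing notes, which give no version; the log2 scale was read from the values, 3.67 to 15.46. Of 45098 probe sets 61 were controls and were left out; 34945 had 1 gene symbol, 932 several and 9160 none. Arrays have no read depth; their number limits the precision.

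Group means of all 12 arrays were fitted with limma 3.58.1 (R 4.3.3; lmFit and eBayes, 9 residual and 6.26 prior degrees of freedom), two-sided, and the Benjamini-Hochberg adjustment ran within each contrast on all 45037 probe sets. No filter on dim probe sets was used. Errors after ± are SE for log2 differences and SD for group values; a fold is 2 raised to the absolute log2 difference. Companion and marker genes were read by their brightest probe set with 1 symbol, and described by counts and medians. Named were all members, up to 4 called genes with the smallest p per list and contrast (otherwise the 1 with the smallest p), of which not all are printed, and relatives of members; Marker genes named define their lists. The members, lists and rules were chosen with earlier results of these data known. The scripts were tested on simulated data. Replicate numbers were not used to pair the arrays. Of 12 pairs of one number 4 correlated over 0.1, as did 9 of 36 other pairs, and so few pairs cannot exclude a pairing.

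Alternatives were other normalizations, filters, priors, thresholds and array sets, a replicate block and an adipocyte covariate; hepatocyte and fibroblast covariates were added after the data were seen. Start-site sequences came from RefSeq; letters were searched on both strands.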

Additional observations from a re-analysis of the deposited data

Results flagged for a closer look

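In a group of 4 arrays, a value was singled out when its gap to the nearest other value exceeded Dixon's 95% critical share of the group's range. Chance does this in about 1 in 20 groups; of 69 groups of member values 4 were singled out, and of 138 groups of other named genes 6.

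Foxo3 1434831_a_at was low on 42-day replicate 2 (9.81, the others 9.96 to 9.99), and Foxo3 1450236_at was high on 5-day replicate 4 (6.87, the others 6.66 to 6.68). Mt2 was high on chow replicate 4 (12.52, the others 12.05 to 12.13) and low on 5-day replicate 4 (12.13, the others 12.46 to 12.51). Among companions, 42-day replicate 4 was high for Ctsl (12.33), Pcna (10.83) and Pik3c3 (9.15). On chow, Slc39a14 was low on replicate 3 (9.36), Cry2 on replicate 1 (10.32) and Trib1 on replicate 2 (9.08).

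The 42-day and 5-day groups differed (limma, adjusted p under 0.05; added age and longer diet cannot be told apart) for 1 member, Eif4ebp1 1434976_x_at, at -0.33. They also differed for the 16 named companions Irs2 (-0.62), Btg2 (-0.58), Rora (-0.37), Eda2r (-0.32), Sesn3 (-0.31), Per1 (-0.30), Ncoa2 (-0.27), Eif4ebp2 (-0.27), Pdpk1 (-0.27), Cebpg (-0.26), Fbxo31 (-0.25), Cry2 (-0.25), Insr (-0.24), Pik3ca (-0.23), Shmt2 (-0.22) and Zmat3 (-0.21). Gsk3b (-0.25), the last of the 17 that passed, lies outside the rule for named genes. Of these companions, Irs2 and Btg2 passed in all 12 fits that left out an array and under all 3 other normalizations.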

How the results depend on the processing

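Over all alternatives no called member value changed its sign. Leaving out each array in turn gave 0 to 0 called member probe sets at 5 days, 2 to 6 at 42 days, 0 to 2 between the diet times and 2 to 4 by F-test; companion counts ran 0 to 11, 5 to 21 and 2 to 21, and counts over all probe sets 5 to 1591, 1945 to 4407 and 32 to 3173. A replicate block, tried although no pairing by number is known, called 0, 3 and 1 member probe sets (F-test 2).

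The 5-day member count (0) was 1 with centred arrays and 2 at an adjusted p under 0.1. The 42-day count (3) was 1 with 1 probe set per gene, 5 at 0.1, and 0 with the hepatocyte or fibroblast covariate. The count between times (1) was 0 with quantile normalization, loess, and the hepatocyte or fibroblast covariate, 2 with the 8 arrays compared, array weights or the adipocyte covariate, 3 at 0.1, and 4 with centred arrays. The F-test count (3) was 1 with 1 probe set per gene and 0 with those 2 covariates.

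Companions at 5 days (8) numbered 5 with quantile normalization, 24 centred, 4 with loess, 14 without the 40% dimmest, 0 with 8 arrays, 4 with the adipocyte and 0 with the fibroblast covariate, and 24 at 0.1. At 42 days (15) they numbered 25 with a trended, robust prior, 9 with the adipocyte covariate, 0 with the others, and 29 at 0.1. Between times (17) they numbered 4 with quantile normalization, 41 centred, 4 with loess, 29 without the dimmest, 26 with 1 probe set per gene, 26 with array weights, 27 with the trended prior, 0 with the hepatocyte or fibroblast covariate, and 36 at 0.1. The causes were not tested. With 4 arrays a group, the median 95% interval of a member reached 0.20 to either side.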
